A study of Homo sapiens with 8 samples.

Results

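The 578 cytosines described here are positions in the coding exons of nuclear genes where RNA was held by NSun6 in HEK293 cells, a human embryonic kidney line long kept in culture. They were selected on the miCLIP reads themselves. Each read end went to the closest cytosine of its strand no more than 2 nt away, with ties going to the 5′ side, and a cytosine was kept when it had over 50 RPM (reads scaled by the total of their library to counts per 1e6) in at least 2 of 3 NSun6 libraries and lay in the coding sequence of a protein-coding gene. They are 578 of 1794 such nuclear cytosines. The remainder comprised 549 in 3′ UTRs, 67 in 5′ UTRs and 600 outside protein-coding exons. The series held 8 samples, with 3 miCLIP libraries of NSun6, 3 of the related enzyme NSun3 and 2 bisulfite RNA sequencing samples of poly(A) RNA. For miCLIP the cells were transfected with a myc-tagged construct of the enzyme, collected 24 hours later, and the tagged protein was pulled down with an antibody against c-myc, so the enzyme was expressed from a construct on top of any endogenous enzyme. The catalytic mutation is described for NSun3. Whether the NSun6 construct carried it, and whether the replicates were separate cultures, is not given in the sources used here, so the spread between libraries may be technical. No treatment is given for the bisulfite samples, which carry the label of the same cell line.

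NSun6 belongs to the NOL1/NOP2/Sun family of RNA methyltransferases, which place a methyl group on carbon 5 of cytosine to give 5-methylcytosine (m5C). Its best known substrates are the tRNAs for threonine and cysteine, where it methylates a cytosine in the 3′ acceptor end. During catalysis these enzymes are joined to their target base by a cysteine. miCLIP makes this link permanent by mutating the enzyme, and cDNA synthesis on the recovered RNA breaks off near the linked base, which is how the position is read. Bisulfite treatment converts unmethylated cytosine and leaves m5C, so the share of unconverted reads estimates methylation of the RNA independently of the pull-down. According to the paper it does not tell m5C from its oxidized form hm5C, and formylated cytosine reads as unmodified. Methylation levels below are shares of unconverted reads.

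The sites fell on a short recurring sequence, CTCCA, and with ties given to the 5′ side the selected cytosine was mostly its first base (T stands for U of the RNA). The windows below are a choice from the 15 sites with bisulfite methylation calls described further on. All those shown were modelled in hairpin loops of 10 or 11 nt, whereas 11 of the 15 lay in a hairpin loop of any size. Each window has 30 nt of the spliced transcript read 5′ to 3′, with the site at base 13, and capitals mark the motif. Positions are in hg19 (GRCh37).
NECTIN2, chromosome 19, 45375183, plus strand: ggccctctgcatCTCCAaagagggccgccc
RPS6KB2, chromosome 11, 67200245, plus strand: gccctgggccatCTCCActcccagggcatc
BBS4, chromosome 15, 73023743, plus strand: ttccagaaagtcCTCCActctggaataaca
TRAF7, chromosome 16, 2225897, plus strand: tggcagcgtctaCTCCAttgctgtgacaaa
PXDN, chromosome 2, 1653062, minus strand: ccacgacctcgaCTCCAcggtggtggccct
NCOR1, chromosome 17, 15971351, minus strand: tcccagcgaagtCTCCAgtgcctggggtgg
The next windows are a choice from the 10 sites with the highest RPM, taken among those that began the motif.
MARCKSL1, chromosome 1, 32801620, minus strand: gggcagccagagCTCCAaggctccccgggg
CKB, chromosome 14, 103986339, minus strand: ggtcttcgacgtCTCCAacgctgaccgcct
CCT3, chromosome 1, 156287296, minus strand: ttcacccgaattCTCCAgatggaggaagag
RBM17, chromosome 10, 6152051, plus strand: acagaccgagatCTCCAaccggacctagca
BUB3, chromosome 10, 124914574, plus strand: tgtgccggccaaCTCCAtgcggctcaagta
The highest sites without CTCCA at the selected base are shown because 4 of these 5 read CTCTA, which differs from the motif at a single base. In these windows the only capital marks the site.
PRRC2A, chromosome 6, 31604122, plus strand: gctggaggagttCtctaccctccaccttcc
SPRED1, chromosome 15, 38631963, plus strand: attcttccagttCtctagtgaaggatcacc
MTHFD2, chromosome 2, 74425782, plus strand: tggctgcgacttCtctaatgtctgctttgg
PATL1, chromosome 11, 59420374, minus strand: aaaggattgggtCtctaaaatccagatgat
MAPK3, chromosome 16, 30128560, minus strand: ttgtatcatcaaCatgaaggcccgaaacta

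Of the 578 sites, 509 were the first cytosine of CTCCA (88.1%, exact 95% binomial interval 85.1 to 90.6). With ties given to the 3′ side this share was 25.8%, as set out with the read ends below. Among all 9293648 nuclear coding cytosines 0.740% began this motif, and in the transcripts of the sites 0.908% did. CTCTA followed with 42 sites (7.27%, against 0.255% of coding cytosines in these transcripts), and CTCGA held 3. Another 21 pentamers held 1 or 2 sites each. Only 7 of the sites that began neither CTCCA nor CTCTA lay on another cytosine of a CTCCA. Sites in 3′ UTRs began the motif at 89.4% (86.6 to 91.9), those in 5′ UTRs at 79.1% (67.4 to 88.1) and those outside protein-coding exons at 21% (17.8 to 24.5). The interval of the coding sites overlapped those of both UTR classes and lay above that of the sites outside protein-coding exons. These intervals count sites and leave out the spread between libraries.

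The sites spread over 506 genes and 23 chromosomes, with 291 on the plus strand and 287 on the minus strand. A single site was found in 455 genes, 38 genes had 2 and 13 had 3 or more. These counts include 7 motifs at which 2 cytosines of the same CTCCA were both sites. In another annotated transcript 212 of the sites lay in a UTR, and 366 lay in no annotated UTR. Mean RPM ran from 38.9 to 3145 with a median of 99.7. The mean exceeded 500 RPM at 33 sites and 1000 RPM at 12, and the 10 highest sites held 17.4% of the summed RPM. These values chose the sites and are given as a description.

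The highest value lay in PRRC2A, which encodes a proline-rich RNA-binding protein, with 3596, 2564 and 3274 RPM in replicates 1, 2 and 3 (3145 ± 528, SD, n = 3). The site was base 1 of leucine codon 1921 in exon 26 of 31. In MARCKSL1, which encodes an actin-regulating relative of MARCKS, serine codon 5 had 2723, 2477 and 3402 RPM (2867 ± 479). The library values of these 2 sites overlapped. CKB, the brain-type creatine kinase that buffers ATP, had 2010, 1871 and 2142 RPM at valine codon 336. S100A11, a calcium-binding protein, had 2229, 1080 and 1735 RPM at isoleucine codon 4. CCT3, a subunit of the TRiC chaperonin that folds actin and tubulin, had 1809, 1536 and 1591 RPM at leucine codon 268. Of these, S100A11 varied most between libraries, with replicate 2 lowest.

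ARHGDIA had 1497, 1525 and 1785 RPM at leucine codon 219, near the end of its coding sequence. RBM17, a splicing factor, had 1420, 1422 and 1451 RPM, with the closest agreement among these sites (SD 17.1). BUB3 acts in the mitotic spindle checkpoint and had 1534, 1206 and 1467 RPM at asparagine codon 47. NECTIN2, a cell adhesion receptor, had 923, 1029 and 1398 RPM at isoleucine codon 184. Each of these sites exceeded the threshold in all 3 libraries by a wide margin, as the plot of the highest sites shows.

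**Figure D1:**
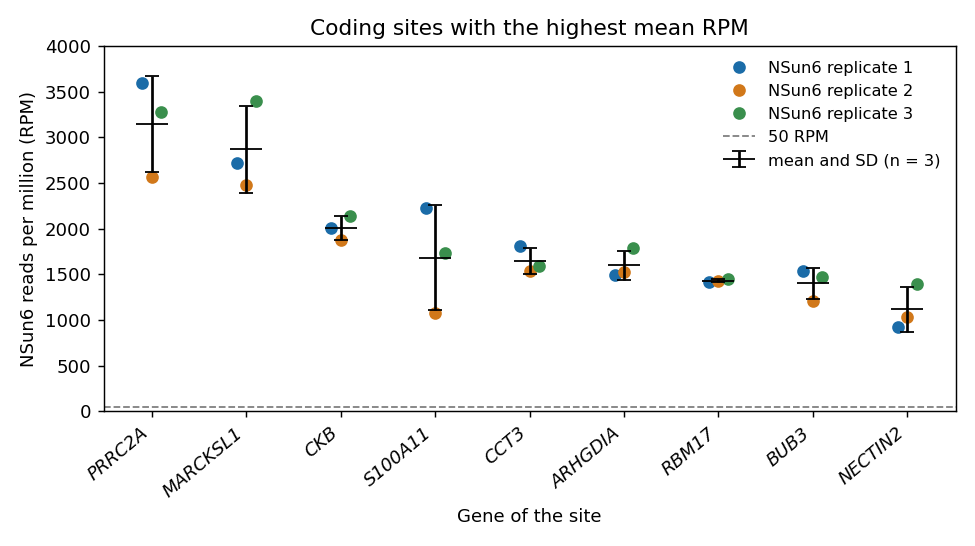
RPM of the described coding sites with the highest means in each of the 3 NSun6 libraries, on a linear axis from 0. Points are libraries, black marks the mean and SD (n = 3), and the dashed line is the 50 RPM threshold, which all points exceed, the lowest being 923 RPM in NECTIN2.

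The NSun6 libraries held 323935, 467586 and 305392 reads, so that the threshold corresponded to 17, 24 and 16 reads. Reads at the coding sites made up 11.9%, 10.1% and 12% of the nuclear reads. The 3 libraries put 495, 504 and 541 of the sites over 50 RPM, and 384 sites (66.4%) passed in all 3. The SD between libraries had a median of 30.6% of the mean. Across the 578 sites, which share each library's depth and do not replicate one another, log2(RPM + 1) correlated with Pearson's r of 0.643, 0.662 and 0.795 between the pairs of libraries.

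Leaving a library out of the selection gave shares that restate the overlap between the libraries. Each time, the cytosines over 50 RPM in the left-out library were the same 384, those over it in all 3 libraries. All 3 libraries also had a part in selecting the described sites, so the shares below are not an independent test of them. Of 467 cytosines chosen on replicates 2 and 3 alone, 82.2% were over 50 RPM in replicate 1. Of 458 chosen without replicate 2, 83.8% passed in it, and of 421 chosen without replicate 3, 91.2% passed in it. The medians in the left-out libraries were 117, 103 and 138 RPM, against 18.5, 4.28 and 9.82 RPM for all coding cytosines with a read there. Just inside the threshold, BCL9, GPR157 and C15orf39 had 51.3 RPM in their second-highest library. Just outside it, KDM2B, SF3B3 and SREBF1 had 49.4 RPM.

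Reads of the NSun3 libraries, which were pulled down with the same antibody, were found at 7 of the 578 sites, each in a single library. Replicate 1 held 92 reads at the highest site of ARHGDIA (662 RPM), 80 at ID3 (576 RPM), 59 at CKB (425 RPM) and 56 at HSP90AB1 (403 RPM). Replicate 3 held 55 reads at SRCAP (1162 RPM), 31 at SNRNP200 (655 RPM) and 1 at BCOR (21.1 RPM), and replicate 2 held none. In those single libraries SRCAP and ID3 were above their NSun6 means of 660 and 292 RPM, and the other sites were below theirs. The NSun3 libraries had 138921, 53024 and 47352 reads, so that a count of 0 allows up to 21.6, 56.6 and 63.4 RPM at a site, counting error only. In replicates 2 and 3 this limit lies above the 50 RPM threshold, so 50 RPM at a site could have gone unseen there. All 7 sites ranked among the 72 highest coding sites of NSun6, and why single NSun3 libraries held reads there was not tested.

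By the deposited positions, read ends piled up 1 nt from the selected cytosine rather than on it. The numbering of these positions was not checked as it was for the bisulfite table. A shift of 1 nt would change the shares below. The paper describes miCLIP reads as ending near the methylated base and not always on it. It found its reads cut off mostly at single cytosines, and allowed a distance of up to 2 nt. Of the reads given to the sites, 71.3%, 69.5% and 70.8% ended 1 nt downstream of the cytosine in replicates 1, 2 and 3 (70.5% ± 0.911, SD, n = 3), and 28.1% ± 0.651 ended on it. Ends 1 nt upstream made up 0.937% ± 0.105. In CTCCA the base after the first cytosine is equally far from the first and the second cytosine, so the rule for ties set which of them was selected. With the 3′ cytosine taken instead, 561 coding sites were found, of which 357 were base 3 of the motif, 145 (25.8%) were base 1, and 269 lay exactly 2 nt downstream of a site. The share of sites on any cytosine of the motif was 89.3% with the 5′ rule and 89.5% with the 3′ rule.

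**Figure D2:**
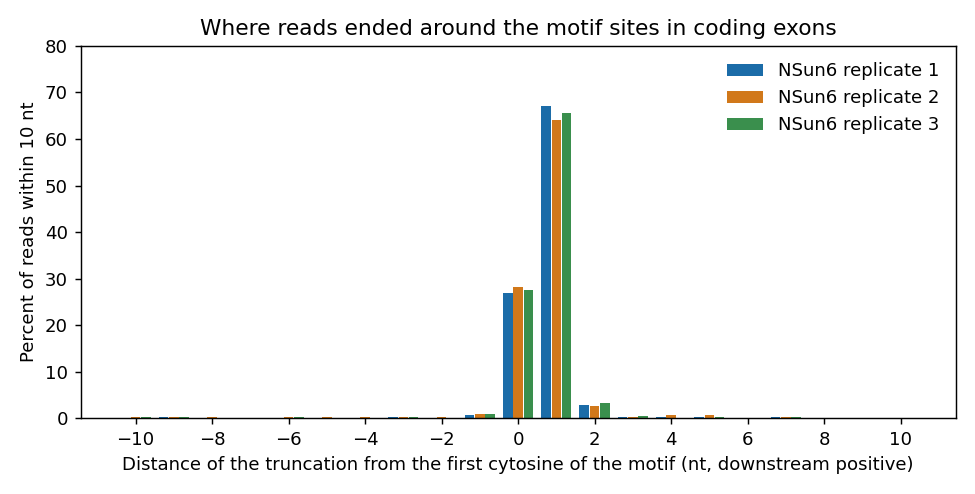
Percent of the NSun6 read ends within 10 nt of the 509 motif sites (vertical axis) by distance from the first cytosine of the motif in nt (horizontal axis), with 1 bar per library. Ends 1 nt downstream made up 67% in replicate 1 and 64.1% in replicate 2, and those on the cytosine 26.9% and 28.2%.

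Bisulfite reads, which had no part in the selection, separated the cytosines of the motif. All 3 cytosines were covered by over 5 reads at 410 motif sites. The first cytosine kept 3250 of 154686 reads unconverted (pooled level 2.10%), the next 58 of 159667 (0.0363%) and the last 59 of 163247 (0.0361%). The first cytosine had the higher level at 222 sites and the next one at 7, while 181 sites had equal levels, 179 of them 0. All 15 motif sites at or over 20% reached that level at the first cytosine, and no other cytosine of the motif at these sites exceeded 6.67%. In MARCKSL1 the first cytosine kept 166 of 1784 reads (9.30%, 8.0 to 10.7) and the cytosine 2 nt downstream, itself over the RPM threshold, 0 of 1847. CCT3 showed the same contrast, with 163 of 6438 reads (2.53%) against 2 of 6482 (0.0309%), as did ARHGDIA, with 49 of 1083 (4.52%) against 2 of 1094 (0.183%). At 7 motifs both of these cytosines were sites, and the first had the higher level at all 7. The others were CKB (12 of 1026 against 0 of 1296), MAPK3 (9 of 40 against 0 of 47), RPS6KB2 (108 of 269 against 1 of 285) and NECTIN2 (72 of 88 against 1 of 106).

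The motif alone did not mark where NSun6 was found. The 508 transcripts of the sites held 3370 first cytosines of CTCCA in coding sequence. Of these 509 were sites (15.1%), 841 had some NSun6 reads within 5 nt without being sites, and 2020 (59.9%) had none. Depth over the unread motifs and the sites was not equal. Over 5 bisulfite reads covered 1383 of the 2020 unread motifs and 410 of the 509 motif sites, and the reads over these covered motifs had a median of 53.0 at unread motifs and 81.5 at sites. The part of this difference in the comparisons of sites with unread motifs was not tested. Over all coding exons, the share of CTCCA that were sites was 0.104% where no bisulfite read fell, 1.41% at 20 to 49 reads and 2.83% at 200 reads or more. Of the 18860 motifs with at least 20 bisulfite reads, 1.82% were sites.

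The base just ahead of the motif differed most between sites and unread motifs of the same transcripts. It was T at 61.9% of motif sites and at 18.4% of unread motifs, and G at 6.88% and 29.9%. Motifs with some reads lay between, with T at 36.4%. No other base within 10 nt differed as much. The base 4 nt upstream was A at 35.0% of sites and 22.6% of unread motifs, and the second base after the motif was G at 38.3% and 24.1%. Sites on CTCTA had T ahead at 54.8%.

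Modelled base pairing also differed at the motif. Each cytosine was folded with 50 nt of its spliced transcript on either side. The first cytosine was unpaired with a probability over 0.5 at 67.6% of motif sites (63.3 to 71.6), at 52.6% of motifs with some reads (49.1 to 56.0) and at 40.6% of unread motifs (38.5 to 42.8). The flanks went the other way. At their lowest points, sites had a mean unpaired probability of 0.316 at 7 nt upstream and 0.330 at 9 nt downstream, against 0.492 and 0.480 for unread motifs. The gap was smaller farther out, with 0.451 at 25 nt upstream and 0.466 at 25 nt downstream of sites, against 0.480 on either side of unread motifs. In 4 equal groups of motif sites, from lowest to highest RPM, the first cytosine was unpaired at 68.8%, 63.8%, 69.3% and 68.5%, and the share with the whole motif unpaired was 36.7%, 32.3%, 44.9% and 41.7%.

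**Figure D3:**
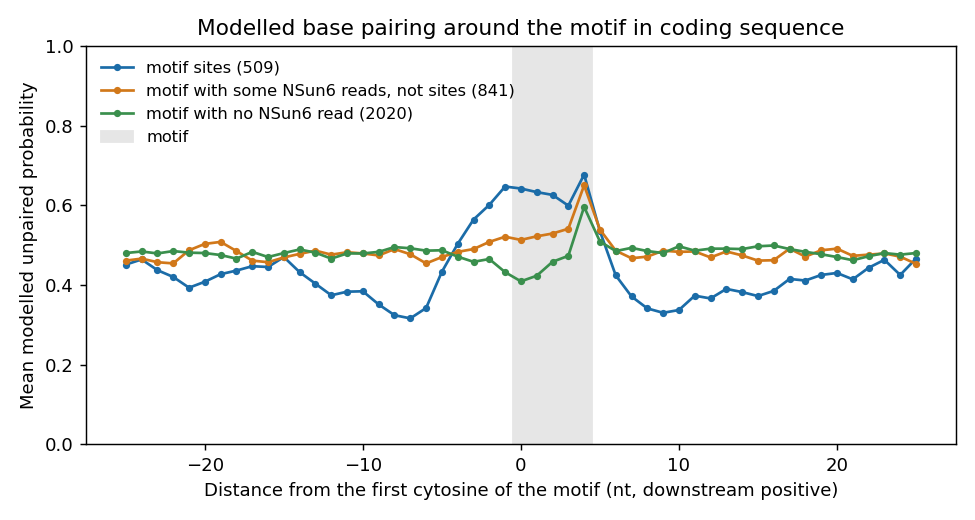
Mean modelled unpaired probability (vertical axis, 0 to 1) at each base from 25 nt upstream to 25 nt downstream of the first cytosine of CTCCA in coding sequence, for motif sites, motifs with some NSun6 reads and motifs without. At the first cytosine the means are 0.642, 0.513 and 0.409, and on both sides of the motif the line for the sites falls below the others.

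In the most stable modelled structure the first cytosine sat in a hairpin loop at 47.9% of motif sites, 23.9% of motifs with some reads and 15% of unread motifs. The share at motif sites was 43.4% with a threshold of 20 RPM and 53.4% with one of 100 RPM. Sites on CTCTA did so at 69.0% (29 of 42). Where there was a loop, a stem of at least 5 consecutive pairs closed it at 81 of 244 motif sites (33.2%) and 79 of 302 unread motifs (26.2%), and the median stem had 3 and 4 pairs. The place of the cytosine in the loop varied. Counted from the 5′ side of the loop, it was base 4 at 61 and base 5 at 49 of the 244 sites in loops, against 32 and 26 of the 302 unread motifs in loops. It was base 1 at 15 and base 2 at 25 of these sites, against 38 and 59 of the unread motifs. A loop of exactly 10 nt with the cytosine at base 5 was modelled at 18 motif sites and at 0 of the 2020 unread motifs, a feature picked after the values were seen. NECTIN2 had this loop on a stem of 10 pairs, and its window above shows the complementary bases on either side of the motif.

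T ahead and the hairpin loop, both picked after their values were seen, occurred together at the motifs with the highest share of sites. Among motifs with T ahead and the cytosine in a modelled hairpin loop, 135 of 265 were sites (50.9%, 44.8 to 57.1) and 76.2% had at least some NSun6 reads. With T ahead only, 180 of 727 were sites (24.8%, 21.7 to 28.1), and with the loop only, 109 of 482 (22.6%, 19 to 26.6). With neither, 85 of 1896 were sites (4.48%, 3.60 to 5.51). All these motifs came from transcripts selected for holding a site, which raises the shares. Over all coding CTCCA with at least 20 bisulfite reads, 1.82% were sites. Motifs are not replicates, so the intervals count motifs only and the classes were not tested against each other.

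**Figure D4:**
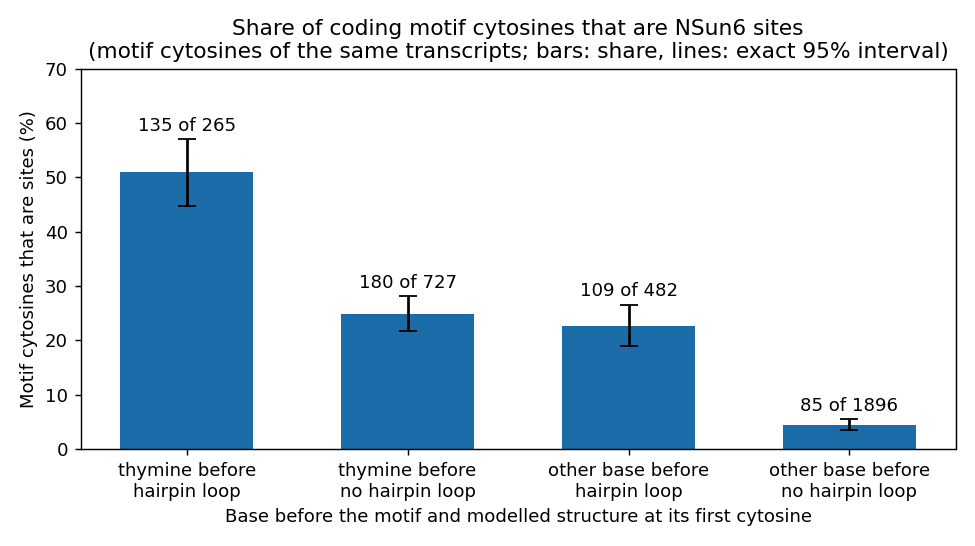
Share of the coding CTCCA cytosines of the site-bearing transcripts that were NSun6 sites (vertical axis, percent, from 0), split by the base ahead of the motif and by whether the most stable modelled structure put the cytosine in a hairpin loop. Bars are shares with exact 95% binomial intervals and the counts above them, and they fall from 50.9% with both features to 4.48% with neither.

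The sites were unequally placed in the reading frame. The cytosine was base 1, 2 and 3 of its codon at 20.6%, 27.9% and 51.6% of the 578 sites, and at 18.5%, 28.1% and 53.4% of the motif sites. With the 3′ cytosine taken in a tie the shares over all sites were 21.9%, 46.2% and 31.9%, so that base 2 and not base 3 led. Among unread motifs the values were 23.1%, 33.9% and 43.0%, and over all coding cytosines of these transcripts 32.2%, 31.5% and 36.3%. T ahead of the motif was more frequent at sites than at unread motifs in each frame, with 55.3% against 13.7% at base 1, 65.7% against 20.9% at base 2 and 62.1% against 18.9% at base 3. The residues most often encoded across the motif were serine-proline (94 sites, 18.5%, against 7.08% of unread motifs), leucine-glutamine (62, 12.2% against 16%), phenylalanine-serine (54, 10.6% against 2.62%) and isoleucine-serine (52, 10.2% against 1.88%). Of these, serine-proline, phenylalanine-serine and isoleucine-serine place T ahead of the motif by the genetic code.

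Along the coding sequence the sites were found in similar numbers from start to stop. Divided into 3 equal parts, it held 195, 182 and 201 sites. The parts held 33.6%, 31.6% and 34.8% of motif sites, and 29.8%, 35.7% and 34.5% of unread motifs. The last exon held 21% of motif sites and 12.6% of unread motifs. Within 10 nt of an exon junction lay 6.88% of motif sites and 9.11% of unread motifs.

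Bisulfite sequencing covered 470 of the 578 sites with over 5 reads (median 91.0 reads), and 108 had fewer. The table does not separate the 2 bisulfite samples, so these levels have no replicate error, and intervals count reads only. A level of at least 20% was reached at 15 sites (3.19%, 1.80 to 5.21). The share was 1.74% with ties given to the 3′ side, 1.70% with a threshold of 20 RPM and 7.23% when calling at 10%. The same call was made at 0.0887% of all 4078513 covered nuclear coding cytosines and at 0.122% of the 27768 that begin CTCCA. All 15 lay on CTCCA, giving 15 of 410 covered motif sites (3.66%), against 0 of 60 covered sites without it. With only 60 such sites, a count of 0 does not set them apart from the share on CTCCA. In the same transcripts the call was made at 1 of 660 motifs with some NSun6 reads and at 0 of 1383 unread motifs, which allows a share of up to 0.217% there, counting error only. The shares in the other classes of NSun6 sites were 11 of 442 in 3′ UTRs (2.49%, 1.25 to 4.41), 0 of 46 in 5′ UTRs (0 to 7.71) and 2 of 278 outside protein-coding exons (0.719%, 0.0872 to 2.57).

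Most coding sites had low levels in the bisulfite samples. The median level was 0.259%, with 217 sites at 0, 389 under 5% and 66 between 5% and 20%. The pooled level over all covered sites was 1.64%, against 0.0934% over all covered coding cytosines. Levels were higher where NSun6 had more reads. In 4 equal groups of motif sites from lowest to highest RPM, the call was made at 2 of 105, 1 of 101, 3 of 101 and 9 of 103 covered sites, and the median level was 0%, 0.233%, 0.249% and 2.53%. A high RPM could still go with a low level. CKB, ranked 3 by RPM, kept 12 of 1026 reads (1.17%, 0.606 to 2.03), and RBM17 13 of 589 (2.21%, 1.18 to 3.74). EEF2, the elongation factor that moves the ribosome along the mRNA, had the deepest coverage of all sites and kept 584 of 30991 reads (1.88%, 1.74 to 2.04) with 129 RPM. ACTB, cytoplasmic actin, kept 17 of 6376 (0.267%, 0.155 to 0.427), and a second EEF2 site on CTCAA 16 of 21603 (0.0741%, 0.0423 to 0.120). The depth at these sites places their levels far under 20%.

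**Figure D5:**
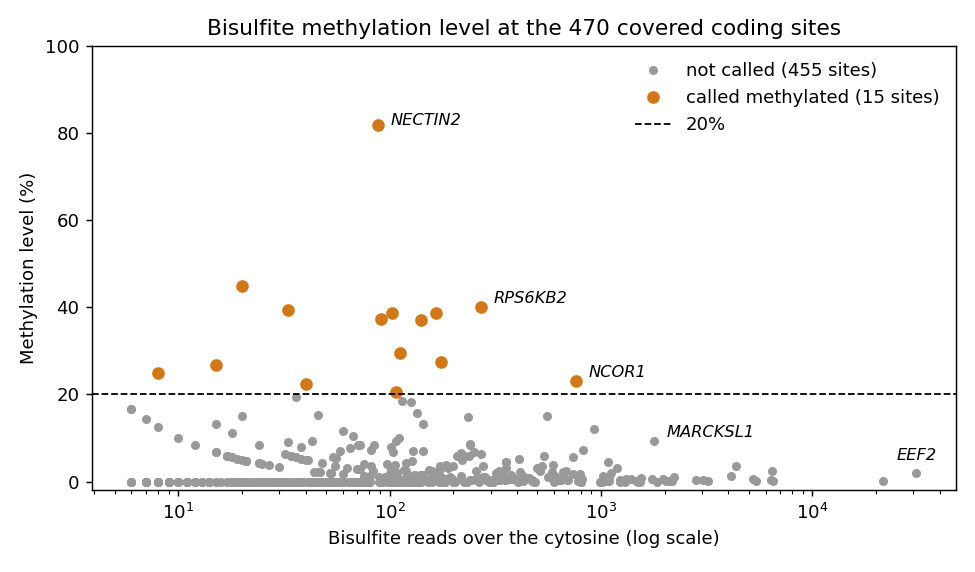
Methylation level in percent (vertical axis) against the number of bisulfite reads (horizontal axis, log scale) at the 470 covered coding sites. Orange points are the 15 sites at or over the dashed 20% line, with NECTIN2 highest at 81.8%, and grey points are the other 455.

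The highest level was that of NECTIN2, with 72 of 88 reads unconverted (81.8%, 72.2 to 89.2). IGFBP6, which binds insulin-like growth factors, kept 9 of 20 (45.0%, 23.1 to 68.5) and had 6.17, 64.2 and 58.9 RPM. RPS6KB2, a kinase of ribosomal protein S6, kept 108 of 269 (40.1%, 34.2 to 46.3) and had 577, 411 and 530 RPM. The interval of NECTIN2 did not overlap that of any other called site. BBS4, a subunit of the ciliary BBSome, kept 13 of 33 (39.4%), and PXDN, a peroxidase of the extracellular matrix, 40 of 103 (38.8%, 29.4 to 48.9). PLD3, a member of the phospholipase D family, kept 64 of 166 (38.6%), CABIN1, an inhibitor of calcineurin, 34 of 91 (37.4%) and DMAC2, an assembly factor of respiratory complex I, 52 of 140 (37.1%). The intervals of these sites overlapped widely.

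At lower levels, SYP, the synaptic vesicle protein synaptophysin, kept 33 of 112 (29.5%) and had 0, 53.5 and 91.7 RPM. TRAF7, a ubiquitin ligase, kept 48 of 175 (27.4%). NCOR1, a corepressor of nuclear receptors, had the deepest coverage of the called sites and kept 176 of 761 (23.1%, 20.2 to 26.3), with 580, 342 and 367 RPM. KSR1, a scaffold of the RAF and MEK kinases, kept 4 of 15 (26.7%, 7.79 to 55.1) and PPID, a cyclophilin that works with HSP90, 2 of 8 (25%, 3.19 to 65.1), so that their reads place neither firmly on one side of 20%. MAPK3, the kinase ERK1, kept 9 of 40 (22.5%, 10.8 to 38.5), and BAG6, a chaperone of membrane proteins, 22 of 107 (20.6%, 13.4 to 29.5). Both intervals extend under 20%.

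Cytosines around the called sites were converted. Within 50 nt of each of the 15 sites, 16 to 42 other cytosines were covered and 0 of them were called. The first cytosine was modelled as unpaired with a probability over 0.5 at 13 of the 15 (86.7%), against 70.5% of the 61 motif sites between 5% and 20% and 65.6% of the 334 under 5%. It sat in a hairpin loop at 11 (73.3%), against 52.5% and 45.5%. T ahead of the motif showed the reverse order, with 6 of 15 (40%), 49.2% and 61.4%. The loop of 10 nt with the cytosine at base 5 was modelled at NECTIN2, NCOR1, TRAF7, PXDN and SYP, which made 5 of the 15 called and 7 of the 395 other covered motif sites. RPS6KB2 had a loop of 11 nt on a stem of 8 pairs and BBS4 one of 11 nt on a stem of 9. PLD3 and KSR1 were modelled as paired. The called sites had a median of 177 RPM, the sites between 5% and 20% one of 173 RPM and the sites under 5% one of 92.6 RPM.

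Read from the bisulfite side, 34 covered coding CTCCA cytosines were called in all, and 15 of them were sites. A further 8 had reads in at least 1 NSun6 library without being sites, some of them over 50 RPM in a single library, and 11 had none. Of all 27768 covered coding CTCCA cytosines, 21.1% had an NSun6 read. Among the 22 calls with at least 20 reads, 13 were sites, 3 had some reads and 6 had none. The 3 with some reads were chosen for naming after their values were seen. RPSA, a protein of the small ribosomal subunit, had a level of 58.2% over 11051 reads and 0, 6.42 and 0 RPM. FAM53C had 85.7% over 175 reads and 0, 10.7 and 0 RPM, and SLC22A17 29.1% over 134 reads and 30.9, 34.2 and 9.82 RPM. At these cytosines RPSA and FAM53C had NSun6 reads in replicate 2 only. FAM53C held 2 sites on other CTCCA motifs of its coding sequence, with means of 61.4 and 45 RPM, which kept 0 of 7 and 0 of 1010 bisulfite reads. RPSA has many processed copies in the genome, and the part of such copies in its value was not tested.

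Several genes held more than 1 site. SRRM2, a scaffold of nuclear speckles, had 5 sites between codons 279 and 1907, the highest with 849, 1104 and 1149 RPM on CTCCA at serine codon 1103. SRCAP, the ATPase that loads histone H2A.Z, had 5 from codon 572 to codon 1758, the highest with 892, 610 and 478 RPM. In these long coding sequences the sites lay far apart. BCOR, a subunit of a Polycomb complex, had 5, the highest with 806, 426 and 570 RPM on CTCCA at leucine codon 388, where 35 of 235 reads were unconverted (14.9%, 10.6 to 20.1). Of its other sites, 3 lay between codons 369 and 376 without the motif, with means of 59.6 to 140 RPM. PABPC1, the poly(A)-binding protein, also had 5, all between codons 23 and 32 of exon 1 and none on CTCCA, with means of 46.9 to 182 RPM. Its 5 sites kept at most 2 of 1493 to 2169 reads.

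SNRNP200, the helicase that unwinds the U4/U6 duplex in the spliceosome, had 3 sites, the highest with 874, 659 and 707 RPM and 84 of 557 reads unconverted (15.1%, 12.2 to 18.3). MARCKSL1, ARHGDIA and PRRC2A had 3 each, of which 1 lay 2 nt downstream of the gene's highest site. The highest site of PRRC2A had CTCCA 7 nt downstream, and its bisulfite coverage of 8 reads, 0 of them unconverted, allows a level of up to 36.9%. NSUN6 itself, named after its values were seen because it is the transfected gene, held 3 sites, the highest with 296, 158 and 174 RPM. Since NSun6 was expressed from a transfected construct, its RNA and the endogenous mRNA cannot be told apart there. At least 21 pairs of sites lay within 50 nt of each other.

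The highest sites without CTCCA were mostly CTCTA. After PRRC2A came SPRED1, an inhibitor of RAS signalling, with 309, 186 and 360 RPM. MTHFD2, an enzyme of mitochondrial folate metabolism, had 98.8, 254 and 363 RPM at serine codon 5, and PATL1, a decapping factor, 265, 184 and 242 RPM. MTHFD2 kept 1 of 21 bisulfite reads, and PATL1 and SPRED1 were not covered by over 5. A site of MAPK3 on CATGA, with 315, 227 and 170 RPM, lay in exon 6 upstream of the gene's called CTCCA and kept 0 of 44 reads. Of the 69 sites without CTCCA, 11 had a CTCCA starting within 10 nt.

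The genes with sites came from many functional groups, described here by lists of genes with counts beside the 506 of 20136 protein-coding genes with a site (2.51%). The lists do not hold every member of a group, so counts and highest genes refer to the listed genes only. Genes with a site outside the lists included PCBP1 (271 RPM), PTBP1 (242 RPM), FARS2 (190 RPM), IPO13 (158 RPM) and SEC24D (71.5 RPM). Coding length and depth differ between the groups and their part in the counts was not tested. The share of motifs with at least 20 bisulfite reads that were sites is given too, and was 1.81% over all genes. Few sites lie behind this share in each group, and its difference from all genes was not tested. Chromatin regulators had sites in 10 of 41 genes (24.4%), with the histone methyltransferase KMT2D (mean 606 RPM) and the acetyltransferase CREBBP (497 RPM) highest. Their median coding length was 3315 nt against 1263 nt over all genes, and 7 of their 254 covered motifs were sites (2.76%). Nuclear pore and transport genes had sites in 5 of 30, led by the importin KPNB1 (363 RPM) and the pore protein NUP210 (310 RPM). Of their 90 covered motifs, 5 were sites (5.56%). Genes of actin, tubulin and their partners had sites in 6 of 50, led by MARCKSL1 and the dynein heavy chain DYNC1H1 (314 RPM). Of their 136 covered motifs, 4 were sites (2.94%).

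Among the 20 listed aminoacyl-tRNA synthetases, which charge tRNAs with amino acids, 2 had sites, IARS1 (951 RPM) and YARS1 (94.7 RPM). Of the 39 covered motifs of this list, 2 were sites (5.13%). The list leaves out FARS2, which had a site with 190 RPM. Chaperones had sites in 3 of 34, led by CCT3 and HSP90AB1 (871 RPM), and 4 of their 53 covered motifs were sites (7.55%). DNA replication genes had sites in 3 of 43, led by TYMS (122 RPM) and CDC6 (79.1 RPM), with 3 of 80 covered motifs (3.75%). Genes of hnRNP and SR proteins had sites in 3 of 45, led by SRSF2 (827 RPM) and HNRNPL (166 RPM). Of their 73 covered motifs, 3 were sites (4.11%). Glycolysis had a site in 1 of 17 (TPI1, 186 RPM), the proteasome in 1 of 31 (PSMD2, 165 RPM) and coat proteins in 2 of 30 (SEC24A, 160 RPM, and SEC24B, 47.9 RPM). A single covered motif was a site in each of these 3 groups, out of 25, 33 and 48.

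Genes of the translation machinery and the histones are given last. Cytoplasmic ribosomal proteins had a site in 1 of 88 genes (RPS15, 126 RPM) and 0 of 47 covered motifs, and histones in 1 of 74 (H2AC11, 81.5 RPM) and 0 of 28. Translation factors had sites in 3 of 69, led by EEF2 (129 RPM) and EIF3L (75.8 RPM), and 1 of 91 covered motifs. The coding sequences of ribosomal proteins and histones are short, with medians of 454 and 390 nt, and with so few covered motifs these counts do not set them apart from the share over all genes.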

How the data were processed

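The authors removed duplicate random barcodes and aligned miCLIP reads with Bowtie to hg19, keeping only reads that mapped uniquely. They deposited counts of reads per truncation position, 1 table per library. Strand is not a column there. Each table runs over the chromosomes in 2 passes, and the first was taken as the plus strand, which put 97.9% to 98.0% of positions in exons on the exon's strand. Bisulfite reads were aligned with Bismark per the processing notes, and the deposited table gives percent methylated and counts of methylated and unmethylated reads for both samples together. How they were combined is not given in the sources used here. Its positions start from 0, since 100% fell on C or G after a shift of 1 nt and 47.1% without it. RPM was taken over all reads of a library. Coding exons came from GENCODE 44 on GRCh37, with 1 transcript per site (MANE or APPRIS principal, otherwise the longest coding sequence). Structures were modelled with ViennaRNA 2.7.2 over 101 nt of the spliced transcript. Python 3.11.15, pandas 2.3.3 and scipy 1.17.1 were used. The assignment steps were tested on simulated read ends around isolated cytosines, where no tie can occur, so the tie rule was not tested. Levels of at least 20% with over 5 reads were called methylated. No p-values were computed, because sites are not replicates and their RPM chose them. Shares have exact 95% (Clopper-Pearson) intervals. The sites and lists were chosen with earlier results of these data known. Named were the 10 highest sites (1 of them is not reported here), the genes with most sites (up to 8), the 5 highest without CTCCA, all called sites up to 15, the 5 of highest coverage, those with NSun3 reads, 3 on each side of the threshold, and the 2 highest genes per list. Alternatives varied the threshold, the tie rule, the distance, the annotation, the folding window, the coverage, the call level and the libraries used.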

Additional observations from a re-analysis of the deposited data

How the results depend on the processing

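The number of sites moved with the threshold, from 578 to 1348 at over 20 RPM, 281 at over 100 RPM, 384 with all 3 libraries required and 366 without those in a UTR of another transcript, and it was 421 to 467 when a library was left out and 656 with RPM over nuclear reads only. At over 20 RPM the share beginning CTCCA was 83.1%, that on any cytosine of the motif 85.7%, with T ahead 56.0%, in a hairpin loop 43.4% and called methylated 1.70%. At over 100 RPM the share in a loop was 53.4%. Taking the 3′ cytosine in a tie gave 25.8% beginning CTCCA, 46.2% and 31.9% at codon bases 2 and 3, 1.74% called and, among the 145 sites still at the first cytosine, 56.6% in a loop. The rule moved 269 sites by 2 nt, and the cause of the higher loop share was not tested. Calling at 10% gave 7.23% methylated. With 30 nt on either side, 74.7% of sites were unpaired and 62.3% of motif sites lay in a loop. The share of covered coding CTCCA that were sites was 2.06% at 50 reads or more and 3.70% at over 20 RPM. The other alternatives moved these shares by less than their intervals. The joint shares of T and loop, the comparisons with unread motifs, the groups by RPM, the place in the coding sequence and the gene lists were not recomputed. The measures of any motif cytosine, T ahead and the loop were added after seeing the data. The alternative of sites with no other cytosine within 4 nt gave no value, as 0 sites met it. No paired analysis was possible because no result comes from a test, the NSun6 values having chosen the sites. Depth limits the 108 sites with 5 or fewer bisulfite reads, 31 of them with 0, and, in NSun3 replicates 2 and 3, sites near 50 RPM.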
